A study of Bos taurus with 6 samples.

Results

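The miRNAs described here are the bovine miRNAs that miRBase numbers from miR-2286 to miR-2904. They were chosen by name and selected on 1 measured value, a sum of at least 10 counts over the 4 libraries. The number range held 264 of the 793 known bovine miRNAs in the table. Of those, 108 reached 10 counts, 137 had 1 to 9 counts and 19 had none. The 108 are part of 513 known bovine miRNAs with at least 10 counts and of 8800 sequences counted in all. The sum over both groups chose them, so their abundance is given as a description without a test, while the comparison of steers with bulls was not used in the choice.

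The series measured intramuscular fat (IMF) dissected from the sternomandibularis muscle of Chinese Qinchuan male cattle at 24 months of age, and asked how castration alters the mRNAs and miRNAs of this tissue. All animals came from 1 sire and had been weaned at 3 months. The steers had been castrated at 6 months and the bulls were left intact. Small RNA was sequenced in 2 libraries per group, each of them a pool of 3 animals by the study's design text, although the sample labels give 1 head. The p-values below therefore measure the spread between 2 libraries per group, and pooling hides the spread between animals.

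A miRNA is cut from a hairpin transcript, first by Drosha in the nucleus and then by Dicer in the cytoplasm, and guides Argonaute proteins to mRNAs through its seed, bases 2 to 8 of the mature strand. Where both strands of the hairpin are kept, they are named 5p and 3p. Names in miRBase are numbered in the order of submission, so a run of numbers reflects when sequences were catalogued and not a family, and many cattle entries with high numbers have no named counterpart in other mammals. For most miRNAs in the range no role in fat or muscle is textbook knowledge, and none is stated here.

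The mature sequences of the 4 miRNAs upregulated in steers are printed first, with the seed in capitals and T in place of U, since the comparison below turns on them.
miR-2890: gCCCCGGCcgctcccggcct
miR-2305: cGGGGGTGgcggggaggggg
miR-2427: aGGTCATTtcaaagagggctg
miR-2461-3p: tCAGACTGagagcagtgtgcct

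The 4 miRNAs downregulated in steers have the following sequences, again with the seed in capitals.
miR-2355-5p: cCCAGATAcaatggacaatatgc
miR-2339: tCACTGGAcctagcagagct
miR-2483-5p: cGTCAACCatccagctgtttga
miR-2891: aTCTTTGGgctaggttagtt

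The 3 most abundant miRNAs of the range are shown for their composition and their 3′ ends, with the seed in capitals.
miR-2904: gGGAGCCTcggttggcctc
miR-2887: cGGGACCGgggtccggtgcg
miR-2478: gTATCCCActtctgacacca

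No seed was common to any of these 11 miRNAs. Among the 108 there were 107 distinct seeds, and the only pair with a seed in common was miR-2881 and miR-2900, which are printed to show how far the rest of each sequence differs. Their log2 fold changes (steers over bulls) were -0.36 (SE 0.52) and 0.39 (SE 0.53), and neither was called.
miR-2881: gGGGCGGGggggcgggtg
miR-2900: aGGGCGGGcggcgactggaa

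Counting that pair, 13 of the 108 had 1 of 12 seeds in common with another known bovine miRNA. Of these, miR-2341, miR-2360, miR-2374 and miR-2423 matched partners that had at most 8 counts each, and the partners of miR-2310, miR-2312, miR-2435 and miR-2450b included miR-1814c, miR-2285f, miR-2284t-3p and miR-2450d. The called miRNA miR-2461-3p has the seed of miR-759, and miR-2411-3p that of miR-345-3p, and miR-2403 that of miR-425-3p. miR-345-3p had 926 counts over the 4 libraries, miR-425-3p had 187 and miR-759 had 1. The pair with the called miRNA is printed, with the seed in capitals.
miR-2461-3p: tCAGACTGagagcagtgtgcct
miR-759: gCAGACTGcaaacaattttgac

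Base composition was compared with that of the other known bovine miRNAs, without a test. The GC content had a median of 56.8% over the 108, against 45.8% over the 405 other known bovine miRNAs with at least 10 counts and a sequence. A GC content of 70% or more was found in 24 of the 108 (22.2%) and in 21 of the 405 (5.19%). A run of 4 G (GGGG, searched on the printed strand) occurred in 17 (15.7%) against 26 (6.42%). Both miR-2305 and miR-2890 are 90% G and C, but the bases differ, with 80% G in miR-2305 and 60% C in miR-2890. miR-2478 ends in CCA, as do miR-2328-3p and miR-2411-5p. The counts name a sequence and not its source, and whether reads of these short or GC-rich sequences, miR-2890 and miR-2305 among them, came from the named hairpins or were pieces of other RNAs was not tested.

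The numbers fall into a pair of blocks with different sequences. The 92 miRNAs numbered miR-2286 to miR-2489 had a median length of 22 nt (20 to 25) and a median GC content of 54.5%. The 16 numbered miR-2881 to miR-2904 had a median length of 19.5 nt (18 to 22) and a median GC content of 78.4%. The later block reached 10 counts more often, in 16 of its 23 entries (69.6%) against 92 of 241 (38.2%), and held 77.8 to 80.7% of all counts of the range in each library.

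The 4 miRNA libraries held 6556511 to 10452582 counts. Their TMM factors, which scale each library on the bulk of its sequences, ran from 0.746 in steers 1 to 1.42 in bulls 2, and all levels below are counts in CPM after this scaling. Among markers of other cells, the 6 muscle miRNAs summed to 2208 and 3377 CPM in steers and 5842 and 5394 CPM in bulls, with 2 called down and 0 up. The 6 immune miRNAs summed to 1377 and 1087 CPM in steers and 3612 and 1823 CPM in bulls, also with 2 called down and 0 up. The 3 erythroid miRNAs summed to 3401 and 7360 CPM against 2248 and 1757 CPM, but nearly all of that was miR-486, which was called up, while miR-451 was called down and miR-144 was below 0 and not called. Of 7 epithelial miRNAs 6 were found, at sums of 1.03 and 1.05 CPM against 4.76 and 3.86 CPM. Only 1 of them was tested, and it was called down. Over all sequences tested, 7.08% were called down and 7.08% up. No marker miRNA that was found was at 0 in all libraries. The mRNA counts, with 1 pooled library per group, held adipocyte transcripts (5 genes) at 0.191% in steers and 0.286% in bulls, and skeletal muscle transcripts (6 genes) at 0.202% and 0.355%. The 3 T lymphocyte genes summed to 66 counts in steers and 453 in bulls. The muscle and immune miRNAs were below 0 in all 6 of each list, the erythroid miRNAs went both ways, and the part of these markers in the differences below was not tested. In pooled tissue, fewer cells of a type and less RNA per cell cannot be told apart.

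The range was a small fraction of the miRNA counts. Its share of all counts was 0.169% and 0.248% in the steers libraries and 0.247% and 0.451% in the bulls libraries. After scaling, the sums were 2263 and 2565 CPM in steers and 2543 and 3171 CPM in bulls. The bulls 2 library was the highest on both scales, and the groups overlapped on both.

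Abundance was concentrated in a few miRNAs. The sum of counts had a median of 36 and ran from 10 to 33261. Of the 108, 74 had fewer than 100 counts and 10 had 1000 or more. The 10 most abundant took 89.3 to 92.3% of the counts of the range in each library. miR-2904, miR-2887 and miR-2478 together took 60.5% and 46.7% in steers and 66.2% and 70.9% in bulls.

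The plot of the abundant miRNAs shows the 10 of them by library on a log axis.

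**Figure D1:**
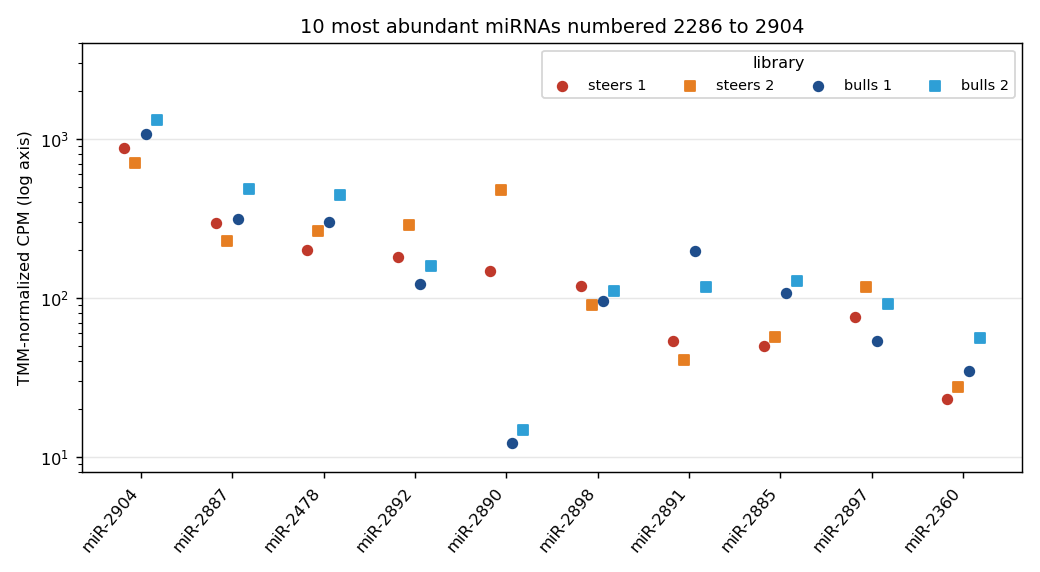
TMM-normalized CPM (log axis) of the 10 most abundant miRNAs of the range, with 1 point for each of the 4 libraries. miR-2904 lies between 707 and 1321 CPM, and the steers libraries of miR-2890 (148 and 476 CPM) lie well above the bulls libraries (12.3 and 14.7 CPM).

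miR-2904, which miRBase places at 3 precursors, was at 873 and 707 CPM in steers and at 1069 and 1321 CPM in bulls. Both bulls libraries were above both steers libraries, but the log2 fold change of -0.60 (SE 0.49) had an adjusted p of 0.434 in edgeR's quasi-likelihood test. miR-2887 was at 295 and 227 CPM in steers and at 312 and 484 CPM in bulls. The fitted log2 fold change was -0.61 (SE 0.50, adjusted p = 0.433). The libraries of the 2 groups did not overlap, although steers 1 and bulls 1 lay close together.

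miR-2478 was at 201 and 264 CPM in steers and at 303 and 445 CPM in bulls, a change of -0.68 on the log2 scale (SE 0.50, adjusted p = 0.365). miR-2360 was at 23.2 and 27.4 CPM in steers and at 34.8 and 56.2 CPM in bulls, a change of -0.84 on the log2 scale (SE 0.47, adjusted p = 0.228). In both, the bulls libraries were higher and bulls 2 was the highest. miR-2885 was at 50.2 and 57.1 CPM in steers and at 108 and 127 CPM in bulls. Its log2 fold change of -1.13 (SE 0.46) missed the threshold with an adjusted p of 0.0824.

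Of the remaining abundant miRNAs, 3 had fold changes above 0 and were not called. miR-2892 was at 182 and 288 CPM in steers and at 122 and 159 CPM in bulls, a change of 0.74 on the log2 scale (SE 0.48, adjusted p = 0.308). Its groups did not overlap. miR-2897 was at 76.0 and 117 CPM in steers and at 53.3 and 91.3 CPM in bulls, a change of 0.42 on the log2 scale (SE 0.46). miR-2898 was at 119 and 90.6 CPM in steers and at 96.0 and 111 CPM in bulls, a change of 0.02 on the log2 scale (SE 0.46). For these last 2 the groups overlapped, and with counts scaled to library totals the log2 fold changes of both were below 0.

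Of the 108, 54 passed the filter on low counts and were tested together with all other sequences, 1073 in total. The filter kept every one whose counts summed to more than 37 and none below 29. A miRNA that passed through its high group alone had to differ, so the counts over those tested are descriptions. A miRNA was called at an adjusted p under 0.05 over all 1073 and an absolute log2 fold change over 1.

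Called upregulated in steers were 4 of the 54, and called downregulated were 4. The background over all sequences tested was 7.08% in each direction and 14.2% in either, against 7.41% and 14.8% here, so the miRNAs of the range were called about as often as the rest. At an unadjusted p under 0.05 there were 12 of 54 (22.2%), against 27.3% of all sequences. The median log2 fold change was -0.03 over the 54 and -0.07 over all 1073. Of the 54, 26 were above 0 and 28 below, and 25 lay within 0.5 of 0. The groups did not overlap in 14 miRNAs that were higher in steers (25.9%, against 26.7% of all sequences) and in 18 that were higher in bulls (33.3% against 31.5%), 59.3% together against a background of 58.2%. Upper-quartile factors gave 6 up and 3 down in place of 4 and 4, and counts scaled to library totals gave 0 and 0. Over all 1073 sequences these settings called 101 up and 52 down, and 1 up and 0 down.

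miR-2890, a C-rich sequence, was counted 1156 and 4076 times in the steers libraries, against 93 and 137 in the bulls libraries. The steers libraries were both higher, and they differed from each other more than the bulls libraries did. The log2 fold change was 4.53 (SE 0.56). Its adjusted p was 1.3e-13. The log2 fold change was 3.50 without steers replicate 2 and 5.19 without steers replicate 1, called both times.

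miR-2305, the G-rich sequence, was counted 40 and 90 times in the steers libraries, against 5 and 10 in the bulls libraries, or 5.13 and 10.5 CPM against 0.661 and 1.07 CPM. Steers 2 was again the higher steers library. The log2 fold change was 3.14 (SE 0.61, adjusted p = 1.8e-05), with 2.58 when steers replicate 2 was left out.

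miR-2427 was counted 18 and 37 times in the steers libraries, against 6 and 5 in the bulls libraries, or 2.31 and 4.32 CPM against 0.794 and 0.536 CPM. Its log2 fold change was 2.31 (SE 0.67, adjusted p = 0.0092). Without steers replicate 2 and without bulls replicate 2 it was no longer called, at log2 fold changes of 1.83 and 2.01. miR-2461-3p was counted 12 and 30 times in the steers libraries, against 4 and 8 in the bulls libraries, or 1.54 and 3.50 CPM against 0.529 and 0.858 CPM. Its log2 fold change of 1.83 (SE 0.68) had an adjusted p of 0.0496, next to the threshold. It was not called when steers replicate 1, bulls replicate 1 or bulls replicate 2 was left out (2.35, 1.73 and 2.19), and it did not pass the filter without steers replicate 2. In all 4 upregulated miRNAs the steers 2 library was the highest of the 4 libraries.

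Of the downregulated miRNAs, miR-2355-5p was counted 1 and 0 times in the steers libraries, against 18 and 19 in the bulls libraries. On the pooled counts, bulls were 35.8-fold higher, with a counting interval from 6.04 to 1453, and the fitted log2 fold change was -4.86 (SE 1.00, adjusted p = 6.7e-05). Without steers replicate 2, where its count was 0, it was not called (-3.91), and without steers replicate 1 the value was -7.22, which rests on a count of 0 and is no bound. miR-2339 was counted 1 and 3 times in the steers libraries, against 29 and 25 in the bulls libraries, or 0.128 and 0.350 CPM against 3.84 and 2.68 CPM. The log2 fold change was -3.66 (SE 0.79, adjusted p = 0.00015), and the bulls libraries were both far above the steers libraries. Without steers replicate 2 it was -4.47 and without steers replicate 1 it was -3.11.

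miR-2891 was the abundant one among the downregulated miRNAs, counted 418 and 350 times in steers, against 1493 and 1089 in bulls, or 53.6 and 40.9 CPM against 197 and 117 CPM. The log2 fold change was -1.73 (SE 0.47, adjusted p = 0.0054). It was not called when steers replicate 1, steers replicate 2 or bulls replicate 1 was left out, at log2 fold changes of -1.90, -1.52 and -1.11, the last of which came without its highest library. miR-2483-5p was counted 7 and 6 times in the steers libraries, against 26 and 23 in the bulls libraries, or 0.898 and 0.701 CPM against 3.44 and 2.47 CPM. Its log2 fold change was -1.86 (SE 0.66, adjusted p = 0.0392). Leaving out any 1 library ended its call, at log2 fold changes from -2.12 to -1.42.

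The plot of the 8 called miRNAs shows the levels behind these calls by library.

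**Figure D2:**
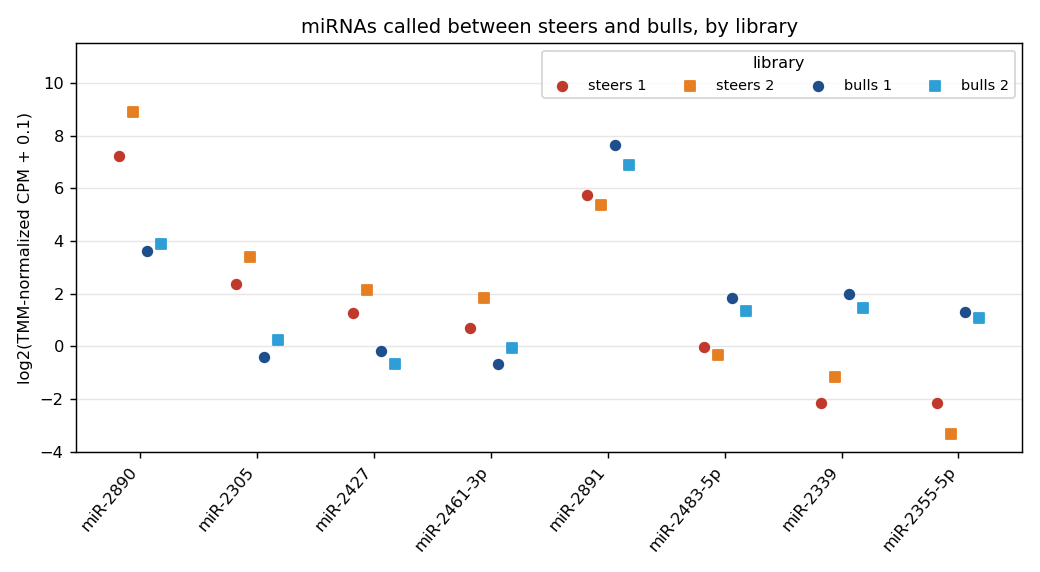
Level of the 8 called miRNAs in each library, as log2 of TMM-normalized CPM with 0.1 CPM added so that a count of 0 can be drawn. Steers lie above bulls in the 4 miRNAs on the left and below them in the 4 on the right, and miR-2890 and miR-2891 are the only ones above 20 CPM in any library.

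The calls were not equally stable. Over 12 alternative fits, miR-2890, miR-2305 and miR-2339 were called in 11 each and miR-2355-5p in 10. miR-2427 was called in 9 and miR-2891 in 8. miR-2483-5p was called in 3, and miR-2461-3p in 3 of the 11 in which it was fitted. Of these, miR-2339, miR-2355-5p, miR-2427 and miR-2483-5p had passed the main filter through their high group alone. So had miR-2415-3p and miR-2401, which were not called. Every one of the 8 lost its call with counts scaled to library totals, where the median of all sequences lay at -0.56 on the log2 scale and 1 of the 1073 sequences was called. The direction of the 8 was the same in every fit. They had been selected for a large difference and the fits draw on the same 4 libraries, so a reversal was unlikely from the start. By the same count, miR-2415-3p and miR-2425-5p, which were not called, passed in 4 of the 12 alternatives each, more than miR-2483-5p and miR-2461-3p did.

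**Figure D3:**
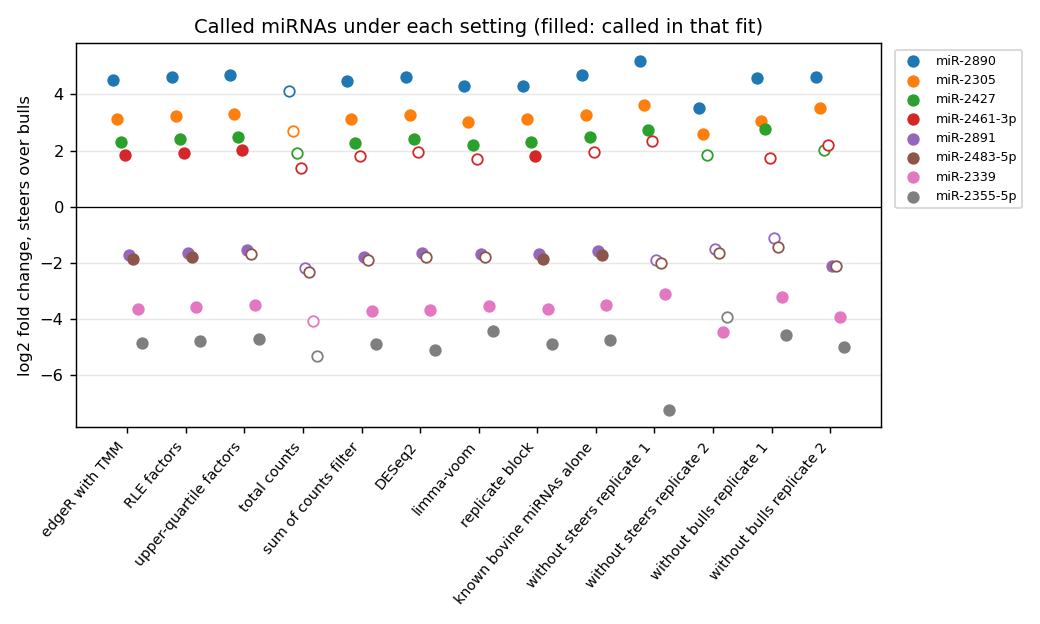
Log2 fold change (steers over bulls) of the 8 called miRNAs under each way of processing, with filled points where the miRNA was called and open points where it was not. All points of a miRNA lie on the same side of 0, and the points with counts scaled to library totals are all open.

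Among the 46 miRNAs tested and not called, the largest difference with no overlap between groups was that of miR-2415-3p, counted 16 and 12 times in steers, against 4 and 3 in bulls. The fitted log2 fold change was 2.004 (SE 0.75, adjusted p = 0.0545). miR-2328-3p was at 1.54 and 2.92 CPM in steers and at 4.50 and 6.65 CPM in bulls, a change of -1.31 on the log2 scale (SE 0.55, adjusted p = 0.0903). miR-2425-5p was at 7.70 and 6.31 CPM in steers and at 3.57 and 2.25 CPM in bulls, a change of 1.27 on the log2 scale (SE 0.54, adjusted p = 0.0974). The change in miR-2401 was -1.07 on the log2 scale (SE 0.69, adjusted p = 0.303), with steers at 1.28 and 0.350 CPM and bulls at 1.46 and 1.93 CPM. Of these, miR-2415-3p and miR-2401 had passed the filter through their high group alone, so their groups had to differ.

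The direction of change was compared with the base composition. The log2 fold changes had a median of 0.03 in the 12 tested miRNAs under 50% GC, of 0.05 in the 24 from 50 to under 70% and of -0.04 in the 18 at 70% or more. Of the 18 at 70% GC or more, 2 were called, miR-2890 and miR-2305, both up. Called were 1 up and 2 down of the 12 under 50% GC, and 1 up and 2 down of the 24 between. Over all 1073 sequences tested, 7.08% were called in each direction. Calls by GC band were not counted over all sequences, so these few calls are a description. GC content and log2 fold change had Pearson's r of 0.23 and Spearman's rho of 0.08 across the 54, which share the same 4 libraries and are not replicates. Of the 12 tested miRNAs with GGGG, 4 were above 0, the median was -0.29 and 1 was called, miR-2305.

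**Figure D4:**
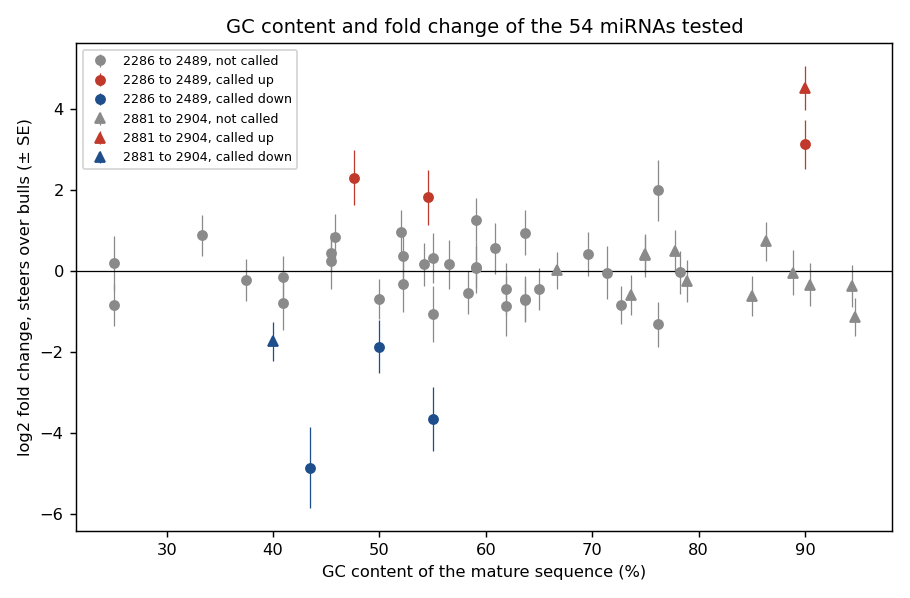
Log2 fold change (steers over bulls, with SE bars) against GC content (%) for the 54 tested miRNAs, with the 8 called ones marked. Points lie on both sides of 0 in each of the 3 GC bands, and the highest point is miR-2890 at 90% GC.

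Summed levels by composition rested on single miRNAs. The miRNAs under 50% GC summed to 168 and 151 CPM in steers and 306 and 216 CPM in bulls, and without miR-2891 to 115 and 110 CPM against 108 and 99.5 CPM. Those at 70% GC or more summed to 1693 and 1961 CPM in steers and 1749 and 2314 CPM in bulls, which overlapped. Without miR-2890 they summed to 1545 and 1485 CPM in steers and 1737 and 2299 CPM in bulls. Of these sums, miR-2904 alone was at 873 and 707 CPM in steers and 1069 and 1321 CPM in bulls.

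By number, the 40 tested miRNAs from miR-2286 to miR-2489 had a median log2 fold change of 0.03 with 3 called up and 3 down. The 14 tested from miR-2881 to miR-2904 had a median of -0.14, with miR-2890 up and miR-2891 down. Over all 1073 sequences tested, 14.2% were called in either direction, and the calls of both blocks were near that share. The replicates of the tested miRNAs differed by a median of 1.32-fold in steers and 1.45-fold in bulls. They were more than 2-fold apart for 8 miRNAs in steers and 5 in bulls. The highest of the 4 libraries was steers 2 for 18 of the 54, bulls 2 for 17, bulls 1 for 12 and steers 1 for 7.

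For 9 precursors both arms were in the range with at least 10 counts, so the share of the 5p arm could be compared within each library. With 2 libraries per group a two-sided exact permutation test cannot go below a p of 0.333, and no test was made. The share was higher in both steers libraries for 4 precursors, higher in both bulls libraries for 2 and overlapped for 2. Other bovine precursors were not counted in this way, so these numbers are a description of the 9. For miR-2328 and miR-2419, both among the 4, the rarer arm had 10 counts over all libraries. miR-2355 had no counts in steers 2.

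miR-2299 was counted mostly from its 5p arm, at 97.0% (95% Clopper-Pearson interval 93.8 to 98.8) and 98.1% (94.6 to 99.6) in steers and 92.5% (86.7 to 96.4) and 90.3% (82.4 to 95.5) in bulls. miR-2328 was counted mostly from its 3p arm, with 25.0% and 13.8% from 5p in steers, 3.13% in bulls 2 and 0 of 34 counts in bulls 1, which allows a share of up to 10.3%. miR-2355 was mostly 5p in bulls, at 72.0% of 25 counts and 86.4% of 22, against 25.0% of 4 counts in steers 1. The 4 counts leave an interval from 0.631 to 80.6%, so that the share in steers could not be resolved at this depth.

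In miR-2411, the counts came about equally from both arms in steers (47.1% and 49.0% from 5p) and somewhat more from 5p in bulls (57.1% and 65.7%). miR-2483 was at 53.8% and 31.6% in steers and at 63.4% and 54.8% in bulls. miR-2419, at 96.7 to 100% in all libraries, was almost all 5p. miR-2431 lay between 26.7 and 40.6%, miR-2320 between 69.7 and 82.9% and miR-2425 between 84.0 and 91.5%. The intervals cover counting error only.

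**Figure D5:**
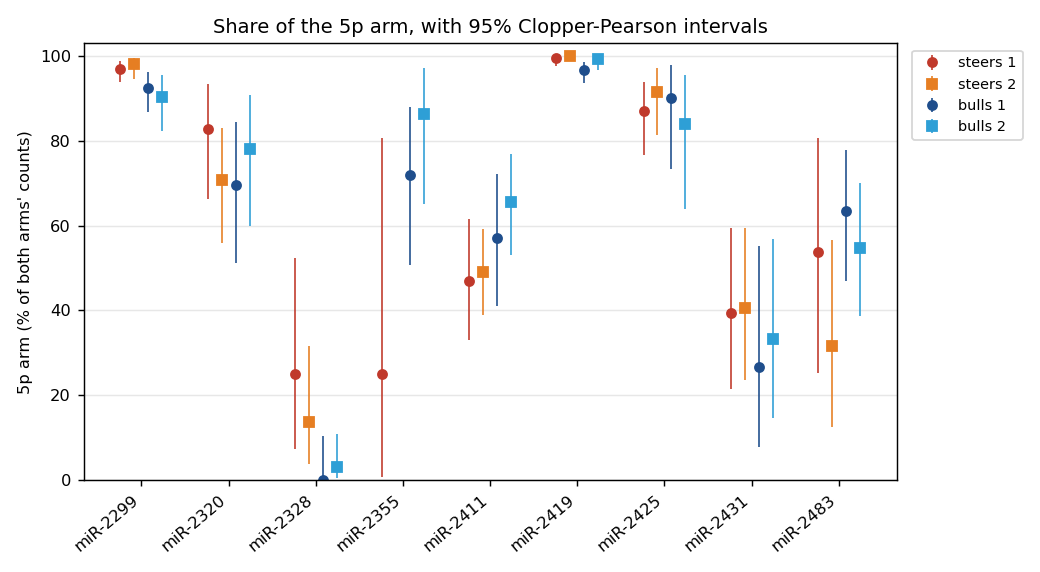
Share of the 5p arm (% of the counts of both arms) in each library for the 9 precursors with both arms counted, with 95% Clopper-Pearson intervals. The intervals of miR-2355 and miR-2483 are wide, and the 4 points of miR-2419 all lie above 96%.

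The 54 miRNAs that were not tested had at most 37 counts and at most 3.39 CPM in any library. In 18 of them both steers libraries were above both bulls libraries in CPM (33.3%), and in 10 both were below (18.5%). Over all 861 untested sequences with at least 10 counts the shares were 25.3% and 16.7%, so steers were more often the higher group there as well. miR-2335 had no counts in steers and 8 and 4 in bulls, which makes its level in steers at least 3.87-fold lower, taking 3 counts over the group as the floor. miR-2468 had 0 and 1 counts against 6 and 5, a ratio of 10.7 with a counting interval of 1.55 to 459. miR-2292 was counted 4 and 29 times in the steers libraries, against 3 and 1 in the bulls libraries, so that a single steers library held most of its counts. When the filter was the sum of counts alone, all 108 were fitted and these first and last miRNAs were called, while miR-2483-5p and miR-2461-3p were not. These 3 were singled out after their values were seen.

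The lower limit of 10 counts was close to many entries. Just inside it were 9 miRNAs with 10 counts, miR-2307, miR-2312, miR-2328-5p, miR-2419-3p, miR-2428, miR-2448-3p, miR-2455, miR-2467-3p and miR-2903, and 3 with 11, miR-2352, miR-2417 and miR-2446. Just outside were 4 with 9 counts, miR-2366, miR-2372, miR-2406 and miR-2442, and 8 with 8 counts, miR-2343, miR-2361, miR-2388-5p, miR-2402, miR-2449, miR-2450d, miR-2466-3p and miR-2882.

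Some of these counts cannot be assigned to 1 gene. For 3 miRNAs, miR-2310, miR-2312 and miR-2450b, at least 15 bases in a row were shared with another known bovine miRNA on the same or the opposite strand, and their counts are uncertain. None of the 3 was tested. 4 miRNAs, miR-2904, miR-2887, miR-2888 and miR-2404, have more than 1 precursor, so their counts do not say which copy was transcribed.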

How the data were processed

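IMF from steers and bulls gave 2 pooled miRNA libraries and 1 pooled mRNA library per group. Groups follow the treatment in the sample labels. Sample labels give 1 head per miRNA library, while the series' design text and the paper give 3 animals, which is used here.

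The authors deposited raw read counts, without normalization. For miRNA, BWA placed trimmed reads on miRBase 21.0 and on the bovine genome (Btau4.6.1 in the paper). The submitters' notes name GRCh37.p13, a human build. mRNA reads were aligned with MapSplice 2.1.8. How reads with several matches were counted is not given in the sources used here. miRNA libraries hold 6556511 to 10452582 counts and mRNA libraries 12677375 (steers) and 9868415 (bulls).

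All sequences that passed filterByExpr were fitted together in edgeR 4.0.16 (R 4.3.3) by glmQLFit and glmQLFTest after TMM scaling, with Benjamini-Hochberg adjustment. The SE was obtained as the size of the log2 fold change over the root of its F statistic. The scripts were tested on simulated data. EBSeq, used in the paper, was not used. Alternatives were RLE, upper-quartile and total-count scaling, a filter on the sum of counts, DESeq2 1.42.0, limma-voom (limma 3.58.1), a replicate block, known bovine miRNAs alone, each library left out and no fold threshold. Intervals (95%, scipy 1.17.1) take in counting error only and leave out the spread between libraries and between animals. PCR copies of a molecule are counted as separate reads, so even the counting error may be understated.

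The miRNAs, lists and tests were chosen with earlier results of these data known. Named were all called miRNAs, the 10 most abundant, those the paper names, both arms of each precursor, the 5 largest uncalled differences without overlap, those beside the limit of 10 counts and those sharing a seed. Sequences of all 108 come from the study's list of known bovine miRNAs. RefSeq genes are on ARS-UCD2.0, another build, so no coordinates are printed. Not every host gene is reported here.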

Additional observations from a re-analysis of the deposited data

How the results depend on the processing

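The numbers of miRNAs called up and down (4 and 4) changed most with counts scaled to library totals, which gave 0 up, 0 down and a median log2 fold change of -0.51 (of 14 alternatives, with the cause not tested). With 1 library left out, the median log2 fold change over all sequences tested shifted as well. It ran from -0.15 without steers replicate 2 to 0.079 without bulls replicate 1. There the lone library of a group is assumed to vary like the other group. RLE factors gave 5 and 4, DESeq2 and limma-voom 3 and 3 each, and known bovine miRNAs alone 6 and 4. The sum-of-counts filter and no fold threshold gave 4 and 4 each. An unadjusted p under 0.05, chosen after seeing the data, gave 6 and 6. Over all 1073 sequences, RLE factors called 88 up and 66 down, DESeq2 71 and 54, and limma-voom 58 and 54. The fit of known bovine miRNAs alone called 39 and 36 of 396, and the sum-of-counts filter 73 and 69 of 1934. The labels do not say that replicate numbers pair the libraries (the replicate 1 libraries deviated together with r = 0.30 and there are 2 pairs). The fit with the replicate block gave 6 up and 6 down, adding miR-2415-3p, miR-2425-5p, miR-2328-3p and miR-2885. Over all 1073 sequences the block raised the calls from 76 up and 76 down to 133 and 119. No called miRNA changed direction, but these had been selected for a large difference in the same libraries. Direction reversed for uncalled miRNAs with counts scaled to library totals (miR-2898 -0.51, miR-2897 -0.10, miR-2320-5p -0.033, miR-2320-3p -0.15 and miR-2411-5p -0.30), with the sum-of-counts filter (miR-2898 -0.00125) and with 1 library left out (miR-2898 from -0.14 without steers replicate 1 to 0.25 without steers replicate 2, miR-2411-5p from -0.31 without steers replicate 2 to 0.62 without steers replicate 1, and miR-2320-3p from -0.16 without bulls replicate 2 to 0.86 without bulls replicate 1), with the cause not tested. Depth limits the 54 untested miRNAs, whose counts summed to at most 37.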

Other observations

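In RefSeq's ARS-UCD2.0 annotation, 104 of the 108 miRNAs matched 99 precursor genes. Of those genes, 78 (78.8%) lay inside a protein-coding gene, against 674 of all 1032 cattle miRNA genes (65.3%). A further 3 lay inside another gene only and 18 inside none. The 1032 include these 99 genes and were not filtered on counts, so the shares compare unlike sets. The table gives no strand, so a precursor inside a gene need not be part of its transcript. miR-2355-5p, miR-2355-3p, miR-2417 and miR-2904 were not matched.

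The mRNA counts of 4 genes that span called miRNAs are given here, from 1 pooled library per group and therefore without a test. RIN2, a regulator of RAB5 that spans miR-2305, was at 86.6 CPM (without TMM, as for the other mRNAs here) in steers and at 145 CPM in bulls, while miR-2305 itself was higher in steers. ELAC2, an endonuclease that trims tRNA precursors and spans miR-2339, was at 41.2 and 33.4 CPM, while miR-2339 was lower in steers. NDST1, a heparan sulfate sulfotransferase that spans miR-2461-3p, was at 68.2 and 51.3 CPM. FRS2, an adaptor of FGF receptors that spans miR-2427, was at 6.63 and 8.21 CPM.

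Of miRNAs near better known ones, miR-2886 lies inside HOXB3 within 10 kb of the gene of miR-10a, and was at 2.82 and 3.27 CPM in steers and 2.91 and 3.32 CPM in bulls. miR-2443 lies within 10 kb of let-7a-3 and let-7b and was at 4.36 and 5.72 CPM in steers and 8.60 and 6.00 CPM in bulls. Neither was called.

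Reads without a bovine match were searched against rat, mouse and human miRNAs by the study. The human miR-2355-5p had no count in steers and 1 in each bulls library, and human miR-2392, miR-2467-3p and miR-2467-5p had at most 1 count in any library.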
